A study of Sus scrofa with 6 samples.

Results

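Glycolysis converts glucose to pyruvate in the cytosol, and pyruvate then has several fates. It can be reduced to lactate, oxidised to acetyl-CoA by the mitochondrial pyruvate dehydrogenase complex, or carboxylated to oxaloacetate by pyruvate carboxylase. In fat cells these routes supply carbon for fatty acid synthesis and glycerol 3-phosphate for triglycerides, and the early steps of gluconeogenesis are used to make that glycerol 3-phosphate from pyruvate (glyceroneogenesis). Many of the steps have isoforms encoded by separate genes that differ in tissue distribution and regulation.

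The genes described here are those of glycolysis and of lactate and pyruvate metabolism. They were taken from a list of 36 pig gene symbols, and a row was kept when its Ensembl identifier carried one of them. Of the 22844 rows of each library table, 32 matched. The lactate dehydrogenase subunit LDHB, the glucose transporters SLC2A1 and SLC2A3 and the lactate transporter SLC16A1 matched no row and were not analysed here. Within the 36 symbols, lactate dehydrogenase and lactate transport were therefore left with 1 gene each and glucose transport with none.

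The tissue was subcutaneous fat of Duroc × Landrace × Yorkshire crossbred pigs. The control group ate the control diet (3 libraries), and the resveratrol group ate a diet containing 400 mg/kg of resveratrol, a plant polyphenol (3 libraries). Total RNA was sequenced after preparation with a long non-coding RNA kit. The labels do not state that the libraries of a group came from separate animals, nor the animals' age or sex, and the p-values below reflect only how far these libraries vary, which may be technical.

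Depth was 16251536 reads in control 2 and between 31528317 and 37943877 reads in the other 5 libraries. On the first principal component, the main axis of variation between libraries (33.6% of variance), control 2 also stood apart. It lay at 60.0, and the other 5 libraries lay between -18.7 and -2.4. On the second component (26.6% of variance) control 1 lay at -47.3 and resveratrol 3 at 34.9, with the rest between -2.3 and 7.2. Levels are given as deposited TPM, a transcript abundance scaled for gene length and library total. TPM is a share of the whole library, and a single assembled locus, MSTRG.12981, took 25.8% of TPM in control 1, 22.2% in resveratrol 1 and between 16.6% and 19.2% in the others. Read counts scaled to library size with TMM, edgeR's correction for library composition, were therefore also used, and their values are given for some genes. The spread between libraries can differ on that scale. For PFKL the highest library exceeded the lowest 1.30 times in TPM and 1.58 times in TMM-scaled reads. Adipocyte markers (ADIPOQ, PLIN1, FABP4, LPL, CIDEC, PPARG and LIPE) summed to between 17648 and 27234 TPM in the 6 libraries. Of 12 skeletal muscle markers 5 had a row, ACTA1 and CKM among them, and these 5 summed to between 1.13 and 2.55 TPM. In bulk tissue, fewer cells of a type and less RNA per cell cannot be told apart.

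All 32 genes were abundant enough to be tested, with a mean over all libraries of 0.5 TPM or more and from 29 reads (SLC16A3 in control 2) to 132595 reads (PC in resveratrol 1). Mean levels over the 6 libraries spanned 0.928 to 853 TPM. Of the 32 genes, 11 lay above 100 TPM, 12 between 10 and 100 TPM and 9 below 10 TPM. Those above 100 TPM were ALDOA, ALDOC, TPI1, GAPDH, PGK1, PGAM1, ENO1, PKM, PC, PDHA1 and PDHB, led by GAPDH, PC and ALDOC. The lactate transporter SLC16A3 and the minor enolases formed the bottom of the range.

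**Figure D1:**
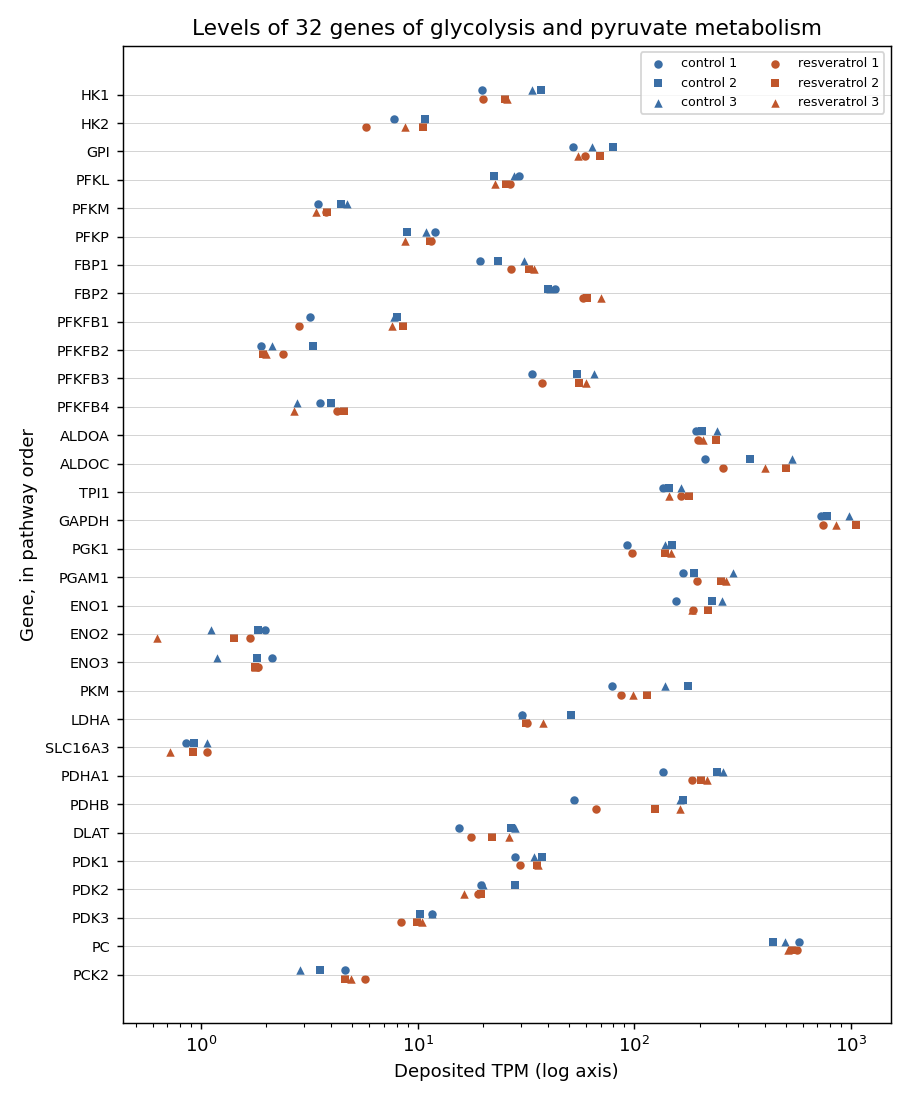
Deposited TPM (log axis) of the 32 genes in pathway order, with 1 point per library, control in blue and resveratrol in orange. GAPDH and PC are the highest rows, SLC16A3 the lowest, and FBP2 is the row with the widest clear gap between the diets.

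No gene of the pathway was called between the diets. In edgeR (quasi-likelihood test, Benjamini-Hochberg adjusted across the 14908 rows tested), 0 of the 32 genes passed an adjusted p of 0.05 (0% of all rows did), and the smallest adjusted p among them was 0.733. DESeq2 on the same counts also called 0 of the 32 (0.268% of all rows). An unadjusted p under 0.05 was reached by 2 genes, FBP2 and PCK2, against 6.53% of all rows. Both were higher in resveratrol (2.21% of all rows) and none was lower (4.32% of all rows). The share of 6.25% is close to the background, so the count is not a result about the pathway.

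Fold changes across the pathway were small. The median log2 fold change of the 32 genes was 0.05, against -0.0075 over all rows, and the median size without sign was 0.12, against 0.20 over all rows. In the counts 21 of 32 genes had a log2 fold change above 0, against 48.8% of all rows. In limma on log2(TPM + 0.5) 14 did, and the median was -0.02, against -0.0792 over all rows. The range in edgeR ran from -0.28 for PKM to 0.68 for FBP2. In TPM the groups did not overlap for 3 of 32 genes (12.3% of all rows): FBP2 and PCK2 were higher in resveratrol (4.11% of all rows) and PDK2 was lower (8.15% of all rows). In TMM-scaled reads the groups did not overlap for FBP2 and PDK2 (12.6% of all rows).

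**Figure D2:**
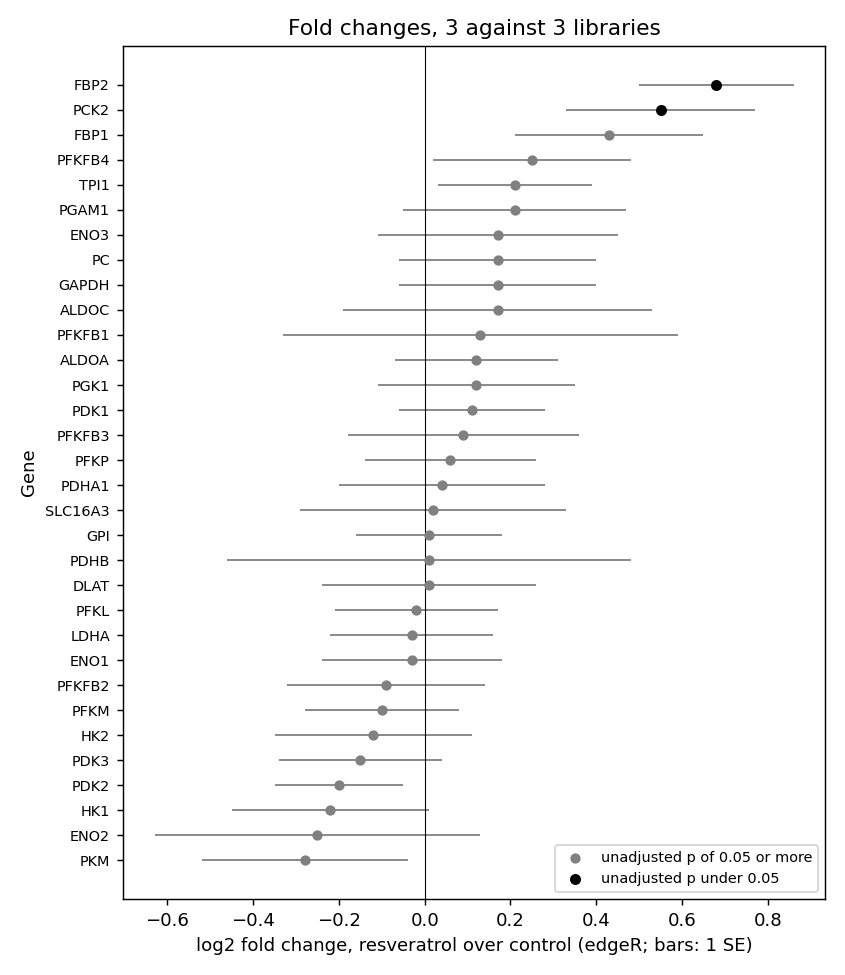
Log2 fold change of each gene, resveratrol over control, from edgeR on 3 against 3 libraries, with bars of 1 standard error. FBP2 and PCK2, in black, had an unadjusted p under 0.05, and the other 30 points lie between -0.28 and 0.43.

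Fructose-bisphosphatase, which removes the phosphate that phosphofructokinase adds and so runs that step towards glucose, showed the widest separation. FBP2, the isoform known from skeletal muscle, measured 43.2, 40.0 and 40.7 TPM in control libraries 1, 2 and 3 and 57.7, 60.2 and 70.1 TPM in resveratrol libraries 1, 2 and 3. Every resveratrol library thus lay above every control library. The gap between the groups was wider than the spread within the control group, clearly in TPM but narrowly in TMM-scaled reads. On the latter scale FBP2 measured 64.8, 49.0 and 60.7 in control and 83.2, 86.1 and 111 in resveratrol. The control libraries were less uniform there, with an SD of 8.16 on a mean of 58.2, against 1.67 on 41.3 in TPM. The log2 fold change of FBP2 was 0.68 (SE 0.18), or a fold of 1.6. Its unadjusted p was 0.00351 and its adjusted p 0.733 in edgeR. In DESeq2 the adjusted p was 0.144. The log2 fold change stayed between 0.55 and 0.77 when each library was left out in turn, with an adjusted p from 0.434 to 1.0. FBP2 had already been seen among the smallest p-values of these data when the list was drawn up, so its place here is not independent support.

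FBP1, the isoform known from liver and kidney, measured 19.4, 23.6 and 31.1 TPM in control and 26.9, 32.6 and 34.6 TPM in resveratrol libraries 1, 2 and 3. The groups overlapped, because control 3 lay above resveratrol 1. Its log2 fold change was 0.43 (SE 0.22, unadjusted p = 0.0800 and adjusted p = 0.733 in edgeR), and it was 0.69 without control 3 and 0.30 without resveratrol 3. FBP1 and FBP2 are direct neighbours in the RefSeq gene order of the pig assembly Sscrofa11.1, and whether the authors' counting could split reads between these related genes is not given in the sources used here.

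Summed over both isoforms, fructose-bisphosphatase measured 62.6, 63.6 and 71.8 TPM in control and 84.6, 92.8 and 105 TPM in resveratrol, with no overlap. The ratio of the means was 1.42, and it was 1.37 with the assembled loci removed and TPM rescaled. An exact two-sided permutation test gave p = 0.10, the smallest that 3 against 3 libraries can give, and an adjusted p of 0.971 over the 17 steps. Of the 17 summed steps it was the only one whose deposited TPM did not overlap between the diets, and with the assembled loci removed the sum of PDK1, PDK2 and PDK3 did not overlap either. FBP2 made up 69.1%, 62.9% and 56.7% of the sum in control and 68.2%, 64.9% and 66.9% in resveratrol, so that its share overlapped (exact permutation p = 0.50).

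Sums of some immune cell markers did not overlap between the diets either. The 6 macrophage markers summed to between 203 and 225 TPM in the control libraries and between 257 and 352 TPM under resveratrol, and none of them was at 0. By log2 fold change 6 of 6 were higher, against 48.8% of all rows. Taken singly, MSR1 and TYROBP did not overlap, while CD68, CD163, CSF1R and AIF1 overlapped. Of all rows, 4.11% did not overlap in TPM and were higher in resveratrol. The neutrophil markers, of which 3 of 4 had a row, summed to between 64.6 and 115 TPM in the control libraries and between 120.0 and 213 TPM in resveratrol, with 3 of 3 higher. Singly, S100A8 and CSF3R did not overlap, and S100A12, the most abundant of them, overlapped. T and B cell markers overlapped in sum, at 7.5 to 9.09 TPM in control and 7.78 to 17.4 TPM in resveratrol. Tendon and cartilage markers (4 of 4 lower, against 7627 of all 14908 rows) summed to between 6.51 and 96.4 TPM in the control libraries and between 2.05 and 3.76 TPM in resveratrol. Of these, TNMD and COL2A1 did not overlap singly (8.15% of all rows did not and were lower), while COMP and ACAN overlapped. The 5 of 12 skeletal muscle markers with a row summed to at most 2.55 TPM in all 6 libraries. The part of these cell types in the values of FBP2, FBP1 and PCK2 was not tested.

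**Figure D3:**
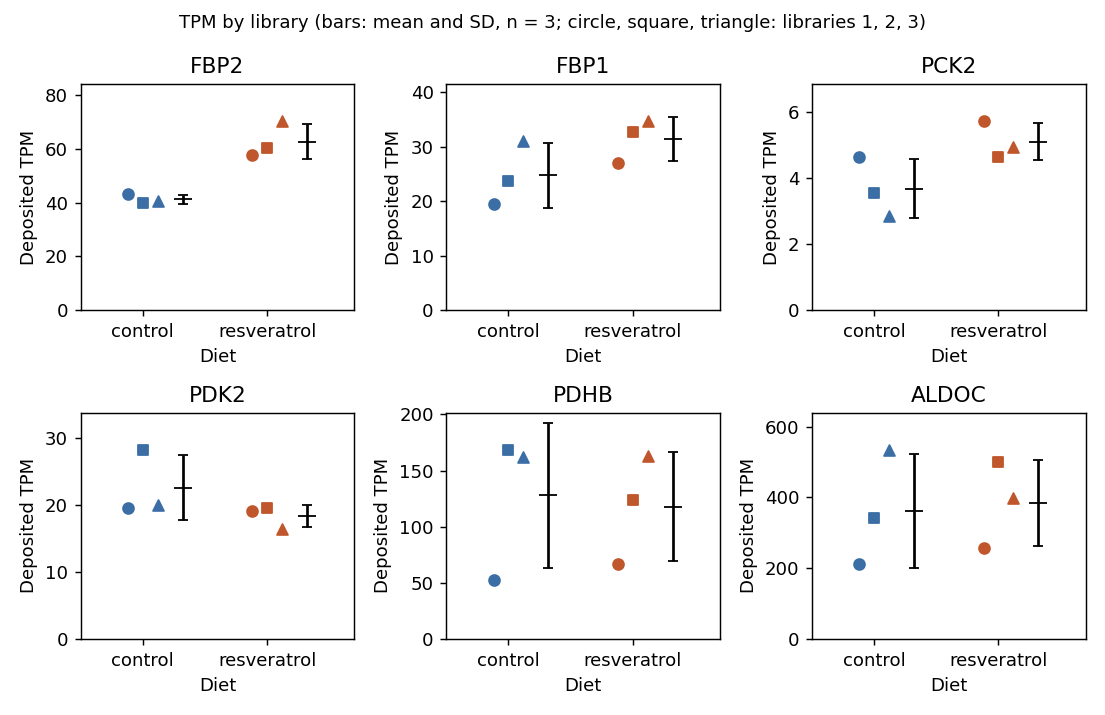
Deposited TPM by library for FBP2, FBP1, PCK2, PDK2, PDHB and ALDOC, with the mean and SD of 3 libraries beside the points. FBP2 is separated by diet, whereas PDHB and ALDOC are lowest in control 1 and, within their diet, in resveratrol 1.

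Phosphofructokinase, the committed step of glycolysis, was led by the liver-type gene PFKL at 29.4, 22.6 and 28.0 TPM in control and 26.7, 25.7 and 22.7 TPM in resveratrol. PFKL took between 62.8% and 65.6% of the step's summed TPM in the 6 libraries, the platelet-type PFKP between 24.8% and 27.8%, and the muscle-type PFKM between 7.77% and 12.4%. None of these shares differed between the diets beyond the spread (exact permutation p = 0.200 to 0.700 for the 3 shares). The log2 fold changes of PFKL, PFKM and PFKP were -0.02, -0.10 and 0.06. Per length, the 2 fructose-bisphosphatases exceeded the 3 phosphofructokinases 1.39, 1.77 and 1.65 times in control and 2.01, 2.27 and 3.00 times in resveratrol. This ratio, chosen after the values were seen, does not depend on how TPM was scaled, and its groups did not overlap (exact permutation p = 0.10, adjusted p = 0.30 over 6 such ratios).

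The bifunctional PFKFB enzymes make and degrade fructose 2,6-bisphosphate, the activator of phosphofructokinase and inhibitor of fructose-bisphosphatase. PFKFB3, the isoform in which the kinase activity dominates, measured 33.7, 54.7 and 65.2 TPM in control and 37.7, 55.3 and 60.0 TPM in resveratrol. It held between 78.2% and 83.7% of the family's TPM, and the group means of that share were 80.5% in both diets. PFKFB1, PFKFB2 and PFKFB4 stayed below 10 TPM. PFKFB1 varied most among them, from 2.83 TPM in resveratrol 1 and 3.20 TPM in control 1 to between 7.61 and 8.57 TPM in the other 4 libraries.

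Hexokinase, which traps glucose as glucose 6-phosphate, came mainly from HK1. HK1 measured 19.9, 37.1 and 33.6 TPM in control and 20.1, 25.4 and 25.8 TPM in resveratrol (log2 fold change -0.22, SE 0.23). HK2, the insulin-responsive isoform of muscle and fat, lay between 5.79 and 10.8 TPM, and HK1 took between 70.5% and 77.6% of the sum in every library. GPI, the isomerase of the following step, measured 52.3, 80.0 and 63.5 TPM in control and 59.0, 69.5 and 54.8 TPM in resveratrol. Both diets overlapped for all 3 genes.

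Aldolase splits fructose 1,6-bisphosphate into trioses, and ALDOC, the isoform best known from brain, was the more abundant gene in 6 of 6 libraries. ALDOC measured 213, 343 and 533 TPM in control and 256, 499 and 399.6 TPM in resveratrol. ALDOA, the muscle and housekeeping isoform, was far steadier, at 192, 206 and 240.2 TPM in the control libraries and 197, 237 and 207 TPM under resveratrol. The share of ALDOA in their sum therefore moved between 31.1% in control 3 and 47.4% in control 1, but not by diet (exact permutation p = 0.700). The highest library exceeded the lowest 2.51 times for ALDOC and 1.25 times for ALDOA.

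The triose enzymes were abundant and overlapped between the diets throughout. GAPDH, often used as a reference gene, measured 725, 774 and 979.7 TPM in control and 740.4, 1049.8 and 851 TPM in resveratrol (log2 fold change 0.17, SE 0.23). TPI1 lay between 136 and 178 TPM, PGK1 between 92.4 and 149 TPM, and PGAM1 between 168 and 285 TPM. The log2 fold changes of TPI1, PGK1 and PGAM1 were 0.21, 0.12 and 0.21, each close to or below its SE of 0.18, 0.23 and 0.26. PGAM1 reached 0.54 without control 3 (unadjusted p = 0.0332 in edgeR, adjusted p = 0.436).

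Enolase was almost wholly ENO1. ENO1 measured 156, 228 and 253 TPM in the control libraries and 186, 218 and 184 TPM under resveratrol, which was between 97.4% and 99.1% of the summed TPM. The neuronal ENO2 lay between 0.631 and 1.98 TPM and the muscle ENO3 between 1.19 and 2.12 TPM. ENO2 was the noisier of the pair, its lowest value being that of resveratrol 3.

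PKM, the pyruvate kinase of most tissues other than liver, measured 78.9, 177 and 139 TPM in control and 86.6, 114 and 98.3 TPM in resveratrol. It had the lowest log2 fold change of the pathway, at -0.28 (SE 0.24, adjusted p = 0.783 in edgeR), although control 1 was the lowest of the 6 libraries. Without control 1 it was -0.52 (unadjusted p = 0.0318, adjusted p = 0.698), and without control 2 it was -0.13. LDHA, the subunit that favours lactate formation, measured 30.4, 50.8 and 30.2 TPM in control and 32.1, 31.7 and 38.1 TPM in resveratrol, with a log2 fold change of -0.03 (SE 0.19). SLC16A3, which exports lactate from glycolytic cells, lay between 0.718 and 1.07 TPM.

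**Figure D4:**
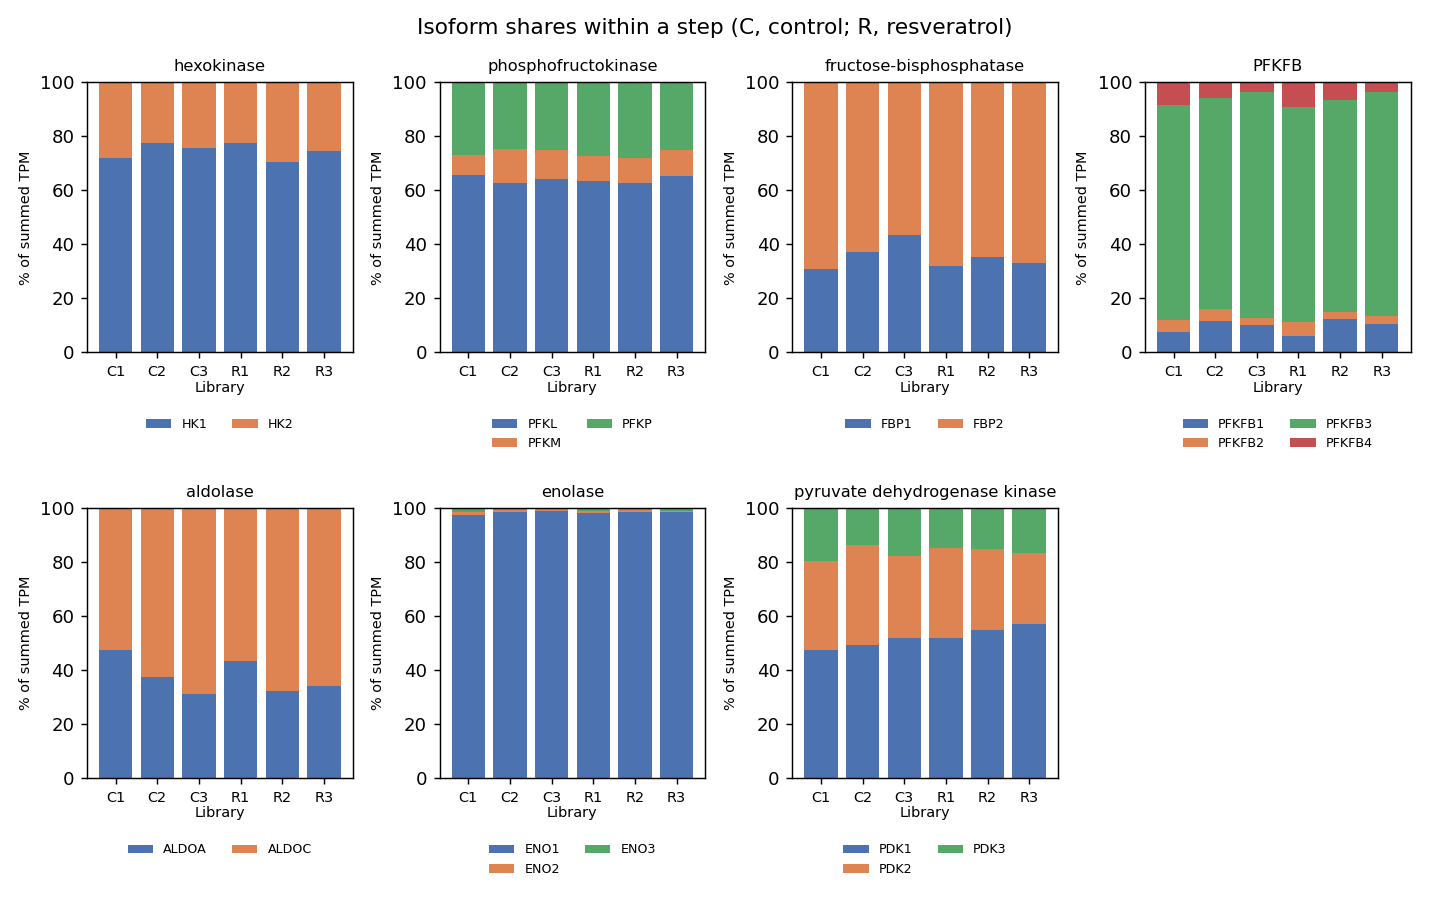
Share of each isoform in the summed TPM of its step, for 7 steps and 6 libraries (C, control; R, resveratrol), over members of the set only, so that PDK4 is not included. HK1, PFKL, PFKFB3 and ENO1 lead their steps in every library, and the aldolase bars vary by library rather than by diet.

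Over the 7 steps with more than 1 gene among the members, 16 shares of the members' summed TPM were compared, and all 16 overlapped between the diets. The smallest exact permutation p was 0.200, for PFKP and PDK1, and every adjusted p was 1.0. In 6 of 6 libraries HK1, PFKL, FBP2, PFKFB3, ALDOC and ENO1 were the most abundant members of their steps. PDK1 was the most abundant of PDK1, PDK2 and PDK3, at 47.5% of their sum in control 1, but it was far below PDK4, which is outside the set.

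Pyruvate dehydrogenase converts pyruvate to acetyl-CoA. Its E1 component is built from the products of PDHA1 and PDHB, and DLAT encodes the E2 component. PDHB measured 52.9, 168 and 162 TPM in control and 66.5, 124 and 163 TPM in resveratrol. Control 1 and resveratrol 1 thus stood apart from the other 4 libraries, and the group means (128 ± 64.7 and 118 ± 48.3 TPM, SD, n = 3 each) hardly differed. PDHA1 measured 135, 240.0 and 258 TPM in the control libraries and 185, 203 and 217 TPM under resveratrol, and DLAT lay between 15.5 and 28.3 TPM, with control 1 and resveratrol 1 again lowest in their groups. Per length, PDHB stood at 0.393, 0.698 and 0.630 of PDHA1 in control and 0.360, 0.609 and 0.748 in resveratrol, so that the subunits did not keep 1 ratio across libraries. The log2 fold changes of PDHA1, PDHB and DLAT were 0.04, 0.01 and 0.01, with standard errors of 0.24, 0.47 and 0.25.

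The pyruvate dehydrogenase kinases PDK1, PDK2 and PDK3 phosphorylate and switch off the complex. PDK2 measured 19.6, 28.2 and 20.0 TPM in control and 19.1, 19.6 and 16.4 TPM in resveratrol. The groups did not overlap, but control 1 and resveratrol 2 are equal at this rounding, and the log2 fold change of -0.20 (SE 0.15) had an unadjusted p of 0.206 and an adjusted p of 0.758 in edgeR. PDK1 measured 28.3, 37.6 and 34.3 TPM in control and 29.7, 35.7 and 35.9 TPM in resveratrol, and PDK3 11.7, 10.3 and 11.7 TPM against 8.37, 9.93 and 10.5 TPM. The fourth kinase, PDK4, which is not among the 36 symbols, exceeded all 3 in sum, at 344, 660.4 and 494 TPM in the control libraries and 477, 465 and 738 TPM under resveratrol (log2 fold change 0.29, SE 0.27).

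Pyruvate carboxylase, encoded by PC, supplies oxaloacetate for citrate export and glyceroneogenesis and was the second most abundant gene of the set. It measured 577, 437 and 494 TPM in the control libraries and 565, 532 and 513 TPM under resveratrol (log2 fold change 0.17, SE 0.23), and it had more TPM than PDHA1 and PDHB together in 6 of 6 libraries, from 1.07 to 3.07 times. PCK2, the mitochondrial enzyme that turns oxaloacetate into phosphoenolpyruvate, measured 4.62, 3.56 and 2.86 TPM in control and 5.71, 4.64 and 4.93 TPM in resveratrol. In TPM the groups were separated by the narrow step from control 1 to resveratrol 2, and in TMM-scaled reads they overlapped. Its log2 fold change was 0.55 (SE 0.22), or 1.47-fold, with an unadjusted p of 0.0319 and an adjusted p of 0.733 in edgeR. The unadjusted p was 0.0777 without control 2, 0.103 without control 3, 0.0975 without resveratrol 1 and 0.0766 without resveratrol 3.

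**Figure D5:**
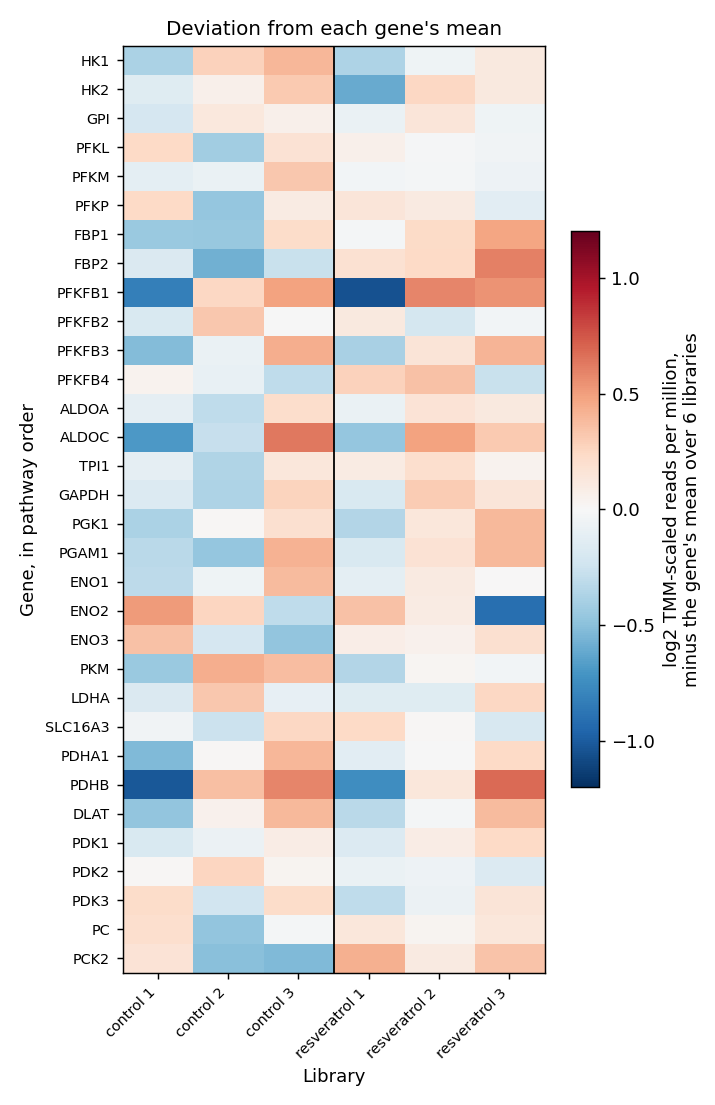
Log2 TMM-scaled reads of each gene in each library, minus the gene's mean over the 6 libraries. The columns of control 1 and resveratrol 1 are blue for PDHB, PFKFB1, ALDOC, PFKFB3, PGK1 and HK1, while the FBP2 row is blue in control and red in resveratrol.

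Across the 6 libraries, whatever their diet, the highest TMM-scaled value exceeded the lowest more than 2 times for 5 of 32 genes, FBP2, PFKFB1, ALDOC, ENO2 and PDHB. In TPM, 15 of 32 genes had their lowest control value in control 1 and their lowest resveratrol value in resveratrol 1, against 12.4% of all rows. In TMM-scaled reads it was 13 of 32 genes, against 10.6% of all rows, and these were ALDOC, DLAT, ENO1, GPI, HK1, HK2, PDHA1, PDHB, PDK1, PFKFB1, PFKFB3, PGK1 and PKM. The pattern was noticed in these values and is given as a description. It was not particular to the members. In TMM-scaled reads it held for 4 of 6 tested pentose phosphate genes and 9 of 27 other glycolysis and pyruvate genes. Among the further lists described below, it held for 2 of 17 glycogen genes, 1 of 11 glycolysis regulators and 0 of 15 hypoxia response genes. Adipocyte markers in sum were lowest in control 1 (17648 TPM) and, within resveratrol, in resveratrol 1 (21612 TPM), of which FABP4 made up 14487 TPM. Singly, all 7 were lowest in control 1 in deposited TPM, but within resveratrol PLIN1, LPL, PPARG and LIPE were lowest in resveratrol 3. Of all rows, 38.1% had their lowest control value in control 1 in TPM. With the assembled loci removed and TPM rescaled, 24.4% did, and the single markers were not compared on that scale. The sum of the fibroblast markers was 4313 TPM in control 1, and no other library exceeded 2273 TPM. COL1A1 made up 3536 TPM of that sum, whereas DPT was lowest in control 1 and PDGFRA was highest in control 2. The part of these cell types in the pattern was not tested. In a fit without control 1 and resveratrol 1, chosen after the data were seen, 2 of 32 genes had an unadjusted p under 0.05 (3.51% of all rows), FBP2 with a log2 fold change of 0.85 and PCK2 with one of 0.76. Both had an adjusted p of 0.999 in edgeR.

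Further genes around the pathway were compared in the same fit. Of 33 listed genes of glucose transport, glycolysis and pyruvate handling outside the set, 27 were tested. Of these, 17 had a log2 fold change above 0 (48.8% of all rows) and 10 below. In edgeR 0 had an unadjusted p under 0.05 (6.53% of all rows). Their smallest p-values belonged to LDHD, a D-lactate dehydrogenase, to the lactate transporter SLC16A7 and to the ADP-dependent glucokinase ADPGK, with log2 fold changes of 0.37, 0.50 and 0.21 and edgeR adjusted p-values of 0.750, 0.763 and 0.768. SLC2A4, the insulin-responsive glucose transporter, measured 13.4, 32.7 and 44.0 TPM in control and 16.9, 35.3 and 24.2 TPM in resveratrol. PCK1, the cytosolic counterpart of PCK2, measured 25.3, 70.9 and 71.8 TPM in control and 24.4, 95.6 and 81.9 TPM in resveratrol. Both were lowest in the same pair of libraries as PDHB.

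Among 17 tested glycogen genes 1 had an unadjusted p under 0.05 in edgeR, against 6.53% of all rows, so the count is near the background. This gene was GYS2, the liver-type glycogen synthase. It measured 19.1, 16.7 and 28.1 TPM in control and 24.1, 33.4 and 40.5 TPM in resveratrol (log2 fold change 0.70, SE 0.29, adjusted p = 0.733 in edgeR). The groups overlapped. PPP1R3C, a glycogen-targeting subunit of protein phosphatase, had a log2 fold change of -0.46 and PHKA2, a phosphorylase kinase subunit, one of -0.40.

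None of the 6 tested pentose phosphate genes and none of the 15 tested hypoxia response genes reached an unadjusted p of 0.05 in edgeR (6.53% of all rows did). The adjusted threshold in edgeR was passed by 0 genes of either list (0% of all rows). The medians of these lists were 0.12 and -0.05. HIF1A, the oxygen-regulated transcription factor that induces many glycolytic genes, stood at 23.3 ± 7.48 TPM on the control diet and at 18.1 ± 1.82 TPM with resveratrol (mean ± SD, n = 3 each). Among 11 tested regulators of glycolysis 1 had an unadjusted p under 0.05 in edgeR, against 6.53% of all rows. This gene was MYC, which also activates glycolytic genes. It measured 8.33, 17.1 and 9.31 TPM in control and 7.48, 6.10 and 5.51 TPM in resveratrol (log2 fold change -0.74, SE 0.22, adjusted p = 0.733 in edgeR). The highest value was again that of control 2.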

How the data were processed

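Each library's deposited table gives, per the file headers, raw read counts and TPM for 22844 rows. The submitters' processing notes name Bowtie 0.12.2 and, as genome builds, mm8 and mm9 of the mouse. The rows carry pig identifiers, while the sources used here do not give the pig build, annotation, counting program or strand setting. A deposited table of the whole series held the same TPM values for 14777 rows.

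Symbols came from a table of Ensembl identifiers (14750 rows matched). The members, lists and rules were chosen with earlier results of these data known. Genes were named by rule: full values for members with an unadjusted p under 0.05 or without overlap between groups, for all isoforms of their steps and for the leading isoform of each other step, and up to 3 genes per further list by smallest p. Others, SLC2A4, PCK1, PDK4 and HIF1A among them, were named after their values were seen.

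The 14908 rows averaging 0.5 TPM or more were tested on the deposited counts with edgeR 4.0.16 (TMM, robust quasi-likelihood test, R 4.3.3), tested first on simulated data. The SE is the size of the log2 fold change divided by the square root of F. DESeq2 1.42.0, limma 3.58.1, other filters and scalings, a replicate block and leaving out each library were alternatives. Shares, sums and ratios of TPM were compared with exact permutation tests.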

Additional observations from a re-analysis of the deposited data

How the results depend on the processing

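Across 17 alternatives no gene of the pathway passed an adjusted p of 0.05. Members at an unadjusted p under 0.05 numbered 1 in limma with each of 3 pseudocounts on TPM (0.5, 1 and 0.1; 5.03% to 5.14% of all rows), and from 1 to 3 of 32 when each library was left out (2.70% to 11.3% of all rows). FBP2 was among them in all 17. FBP1 joined FBP2 and PCK2 with library totals alone and with the replicate block (3 genes each, 9.38% of members, against 6.33% and 8.45% of all rows), and FBP1 and PGAM1 joined FBP2 without control 3 (11.3% of all rows). PKM joined FBP2 and PCK2 without control 1. All rows called numbered 40 in DESeq2, from 0 to 5 without each library, and 2 without control 1 and resveratrol 1, an alternative chosen after seeing the data. The median log2 fold change of the members ran from -0.07 without control 1 to 0.18 without control 3. SLC16A3 could not be tested at a mean of at least 1 TPM.

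Groups share replicate numbers, but the labels do not say that a number marks a shared source. Deviations from the group means correlated at 0.16, 0.07 and 0.20 for numbers 1, 2 and 3, and each library correlated best with its own number, which is a hint from the data only. With the replicate block the rows called stayed at 0, FBP2 had a log2 fold change of 0.68 (edgeR adjusted p = 0.477) and FBP1 one of 0.45 (adjusted p = 0.538).

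With 3 libraries per group, an exact permutation test cannot go below 0.10, and low members such as SLC16A3, with 29 to 86 reads, are the least precise.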
